A study of Mus musculus with 8 samples.

Results

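The RNA helicases that drive pre-mRNA splicing were followed as a group of 10 genes, Dhx35, Dhx15, Dhx8, Dhx16, Dhx38, Ddx23, Ddx46, Snrnp200, Ddx39b and Eif4a3. They were chosen by name, as DEAH, DEAD and Ski2-like helicases of splicing, out of the 55291 genes counted in every library. All 10 were among the 16371 genes with enough reads to be tested. The spliceosome removes introns in a fixed series of rearrangements, and nearly every rearrangement is made by an ATP-driven RNA helicase. DDX39B (UAP56) and DDX46 (PRP5) act while the U2 snRNP joins the intron, and DDX23 (PRP28) releases U1 from the 5′ splice site. SNRNP200 (BRR2) unwinds U4 from U6, DHX16 (PRP2) completes catalytic activation, DHX38 (PRP16) acts between the catalytic steps, DHX8 (PRP22) frees the mRNA and DHX15 (PRP43) takes the remaining complex apart. EIF4A3 is the RNA clamp of the exon junction complex left on the spliced mRNA. DHX35 works with the G-patch protein GPATCH1 and is linked to the quality control of splicing at weak 5′ splice sites.

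Bulk RNA was sequenced from a pair of edited lines of mouse embryonic stem cells. In the DHX35-dTAG line the endogenous DHX35 protein carried a Flag-FKBP12 F36V tag, and in the GPATCH1-dTAG line GPATCH1 carried it. The tag lets dTAG-13, a compound that recruits a ubiquitin ligase, send the tagged protein to the proteasome. Each line was treated for 4 h with DMSO or with 200 nM dTAG-13, which gave 4 groups of 2 libraries. The labels name the cells E14 and the growth protocol speaks of R1 cells. All 8 libraries carried an edited allele, so no library came from unedited cells. Edited colonies were picked singly after puromycin selection, the clone behind each library is not given in the sources used here, and the tagged gene, the clone and any culture batch cannot be told apart in a comparison of the lines. Nothing in the labels says that the 2 libraries of a group came from separate cultures, so the p-values measure the spread between these libraries, which may be technical. The study's purpose was to ask how loss of DHX35 or GPATCH1 affects splicing fidelity. The question followed here is whether the mRNAs of the splicing helicases themselves differed by treatment or by line.

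The helicase genes are relatives, and the stretch of coding sequence that gives the families their names shows how near each one is to Dhx35. Motif II of a helicase binds the magnesium of the ATP, and the DEAH, DEAD and related families are called after its residues. Each line below gives 30 coding bases, 5′ to 3′ on the gene's own strand, with the 4 codons of motif II in capitals. They were read from the GENCODE M21 transcripts of GRCm38 (mm10).
Dhx35 (DEAH): atcatgctgGATGAAGCCCACgagaggacc
Dhx8 (DEAH): attatgttgGATGAAGCACACgagaggacc
Dhx16 (DEAH): gtgatggtgGATGAAGCTCACgagcggacc
Dhx38 (DEAH): gtcatcatgGATGAGGCCCACgagcgctcc
Dhx15 (DEAH): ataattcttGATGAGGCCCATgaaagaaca
Ddx23 (DEAD): gtggttctgGATGAGGCGGATaggatgatt
Ddx46 (DEAD): gttgttttaGATGAAGCAGACagaatgttt
Eif4a3 (DEAD): ctggttttgGATGAGGCTGATgaaatgttg
Ddx39b (DECD): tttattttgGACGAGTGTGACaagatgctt
Snrnp200, the first helicase cassette (Ski2-like): attgtcttgGATGAGATCCATcttctacat

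The Dhx35 stretch lies on the plus strand at chr2:158818266-158818295, in coding sequence of exon 7 of 22 of its chosen coding transcript, and its capitals begin at codon 176 of 703. Of its 30 bases, 27 were the same in Dhx8, 25 in Dhx16, 23 in Dhx38 and 22 in Dhx15. The DEAD and DECD genes shared 17 bases (Ddx23), 16 (Eif4a3) and 15 (Ddx46 and Ddx39b) with Dhx35. The Snrnp200 stretch shared 13. Even Dhx8, the nearest, differed from Dhx35 at several of these bases. The Dhx8 stretch is in exon 14 of 23 at chr11:101752131-101752160 and the Dhx15 stretch in exon 4 of 14 at chr5:52171487-52171516, on the minus strand. In Snrnp200, whose 45 exons hold 2136 codons, the stretch of the first helicase cassette runs from exon 14 into exon 15. The Dhx35 gene itself (ENSMUSG00000027655.14) has 9 annotated transcripts between 158794807 and 158858214 on chromosome 2, with no overlapping gene. Ddx39b shares 167 exon bases with the small RNA genes Gm22589 and Mir8094, so some of its reads may belong to them. The Eif4a3 copies Eif4a3l1 and Eif4a3l2 drew at most 22 and 15 reads in any library, at most 0.88% of the Eif4a3 count. How reads that match both Eif4a3 and a copy were counted is not known, so these counts do not bound such reads.

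Total counts were between 12014203 and 14994173 per library. The DHX35-dTAG DMSO replicate 1 lay apart, with a mean correlation of 0.976 with the rest against at least 0.988 for each other library, 0.366% of its reads on small RNAs against at most 0.143%, and 0.272% on mitochondrial mRNAs against at least 0.758%. The most counted gene pair, Gm23935 and CT010467.1, held between 1.27% and 20.9% of the reads of a library. Levels below are CPM, counts as a share of a library size that TMM adjusts so that such genes affect it little. All 7 embryonic stem cell markers looked for were present, with a summed level of 2980 to 4530 CPM. The 6 feeder fibroblast genes looked for summed to at most 2.27 CPM, with Lum and Postn at 0 in all 8 libraries. Primitive endoderm markers summed to at most 5.55 CPM, neural markers to at most 11.9 CPM and mesoderm markers to at most 27.1 CPM, most of it Eomes. In bulk RNA, fewer cells that express a gene and less of its RNA per cell cannot be told apart.

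Dhx35 had the lowest level per length of the 10 helicase mRNAs. Per kilobase of all annotated exon sequence, Dhx35 stood at 13.5 ± 2.12 CPM per kb (SD, n = 8 libraries), from 11.2 to 16.4. Ddx23, the next, stood at 23.4 ± 1.95 CPM per kb, and its lowest library (21.1) was above every Dhx35 value. At the top were Eif4a3 with 99.9 ± 4.85 CPM per kb and Ddx39b with 91.2 ± 4.32. Eif4a3 was 7.41 times the Dhx35 level, and both leading genes encode helicases that also serve mRNAs after splicing. Snrnp200 (66.6 ± 3.97 CPM per kb) and Dhx16 (61.9 ± 4.77), both of the activation step, came next. Dhx15 followed with 39.8 ± 2.35 CPM per kb. Ddx46, Dhx8 and Dhx38 stood at 31.6 ± 1.53, 29.7 ± 1.66 and 27.4 ± 1.44 CPM per kb. The neighbours Eif4a3 and Ddx39b, Snrnp200 and Dhx16, and all neighbours from Ddx46 to Ddx23 overlapped between libraries, whereas the other neighbours in the order did not overlap. The order depended in part on the length used. Divided by the longest annotated transcript, Dhx15 moved from the fifth place to the third (112 CPM per kb) and Ddx23 from the ninth to the sixth (42.7), while Dhx35 was again last with 20.8 CPM per kb.

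**Figure D1:**
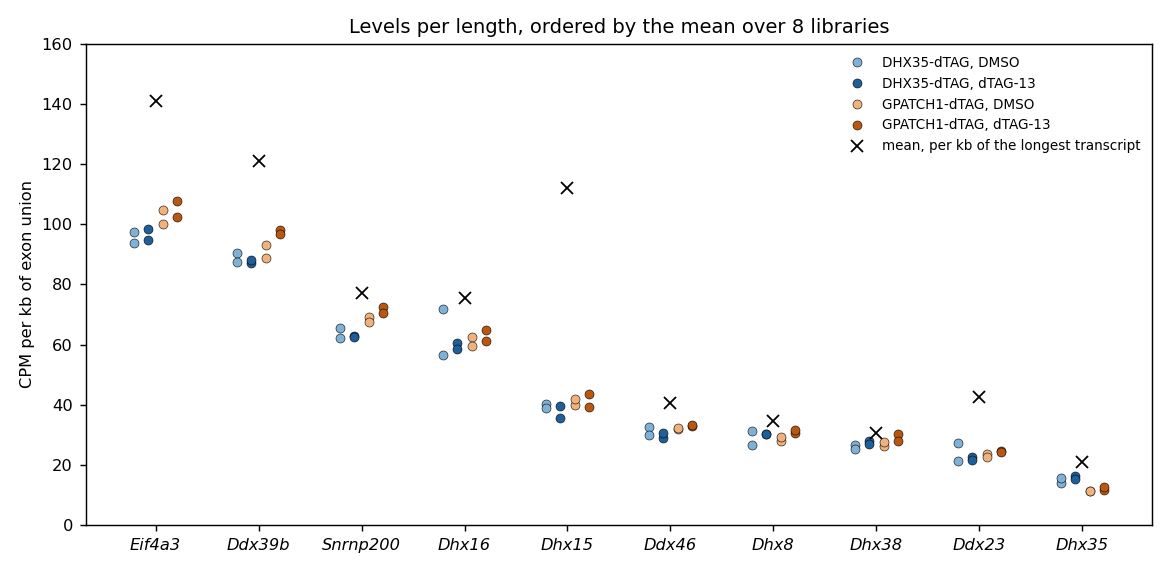
Level of each helicase mRNA in CPM per kb of exon union (y axis, linear, from 0) for the 10 genes in order of their mean, 1 point per library coloured by group; crosses give the mean over the 8 libraries per kb of the longest transcript. Eif4a3 was highest at 99.9 and Dhx35 lowest at 13.5 on the exon union, and Dhx35 was also lowest on the longest transcript, at 20.8.

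Degradation of DHX35 was followed by no detectable change in any of the 10 helicase mRNAs, Dhx35 included. The tag acts on the protein, so the Dhx35 mRNA does not check that the protein was lost. The paper reports western blots in which dTAG-13 degraded both tagged proteins, and protein levels were not analysed here. In DHX35-dTAG cells the Dhx35 level was 72.3 and 80.4 CPM in DMSO and 84.8 and 79.5 CPM in dTAG-13. The groups overlapped, and the log2 difference of 0.11 (SE 0.09, 95% interval -0.11 to 0.32) was within the spread between libraries (edgeR quasi-likelihood test, adjusted p = 0.74). Without DHX35-dTAG DMSO replicate 1 the difference was 0.03 and without replicate 2 it was 0.19 (edgeR adjusted p = 0.091), the lowest and highest values over the 8 libraries left out in turn. None of the 10 genes passed an adjusted p of 0.05, nor an unadjusted p of 0.05, and DESeq2 called none. Over all genes tested, 0% were called and 5.39% had an unadjusted p under 0.05. The other helicases follow, from spliceosome assembly to disassembly.

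Ddx39b, needed for the first stable binding of U2 and later for mRNA export, read 342.6 and 331.0 CPM in DMSO and 329.0 and 333.1 CPM in dTAG-13. Ddx46, which opens the way for U2 to pair with the branch site, read 238.3 and 219.4 CPM in DMSO and 210.5 and 223.7 CPM in dTAG-13. Both pairs of groups overlapped. Ddx23, the U1 release helicase, read 169.6 and 131.4 CPM in DMSO and 139.9 and 134.3 CPM in dTAG-13. Its log2 difference of -0.13 (SE 0.12) was the lowest of the 10, and its 169.6 CPM came from the DMSO library lying apart. Snrnp200, the U4/U6 unwinding helicase, read 512.6 and 485.5 CPM in DMSO and 492.6 and 488.3 CPM in dTAG-13, overlapping. Dhx16, which acts after it, was also highest in the library lying apart and read 294.2 and 230.9 CPM in DMSO against 248.2 and 239.5 CPM in dTAG-13. In that library 2 of the 10 helicases, Dhx16 and Ddx23, lay outside the range of the other 7 libraries, where 59.8% of all genes tested did. In each of the other libraries 0 to 6 of the helicases lay outside, beside 15% to 24.2% of all genes. The 6 were in DHX35-dTAG DMSO replicate 2, where 17.3% of all genes lay outside. Dhx8, Dhx16, Dhx38, Ddx23, Snrnp200 and Eif4a3 each had their lowest value there. The part of the RNA composition of the library lying apart in these values was not tested. Without it, the log2 differences were 0.08 for Dhx16 and 0.06 for Ddx23 (adjusted p = 0.99 for each). With the other DMSO library left out, so that the one lying apart was the only control, they were -0.26 and -0.30 (adjusted p = 0.011 and 0.0035), in a fit that called 28.8% of all genes.

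No helicase of the steps after activation passed the test on DHX35 degradation. Dhx38, which remodels the spliceosome after the first catalytic step, read 132.6 and 125.7 CPM in DMSO and 139.0 and 134.0 CPM in dTAG-13. Dhx38 was the 1 gene of the 10 whose groups did not overlap, at a log2 difference of 0.08 (SE 0.08, adjusted p = 0.77). Groups did not overlap in 28.7% of all genes tested, so 1 of 10 is below that background. Dhx8, the mRNA release helicase, read 156.5 and 134.2 CPM in DMSO and 151.6 and 152.7 CPM in dTAG-13. Dhx15, the disassembly helicase, read 340.4 and 330.1 CPM in DMSO and 301.5 and 334.7 CPM in dTAG-13. Eif4a3 read 206.8 and 199.0 CPM in DMSO and 208.6 and 201.0 CPM in dTAG-13. All 3 overlapped between the groups. Over the 10 genes, 4 log2 differences were above 0 (as were 48.5% of all genes) and 6 below, all 10 being below 0 when total counts alone set the library sizes, a scaling that put the median of all genes at -0.25. The median of the 10 was -0.03 beside -0.01 over all genes. Every 95% interval lay between -0.40 and 0.32 on the log2 scale, from 0.76 times to 1.25 times the DMSO level, so larger shifts lay outside the intervals.

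**Figure D2:**
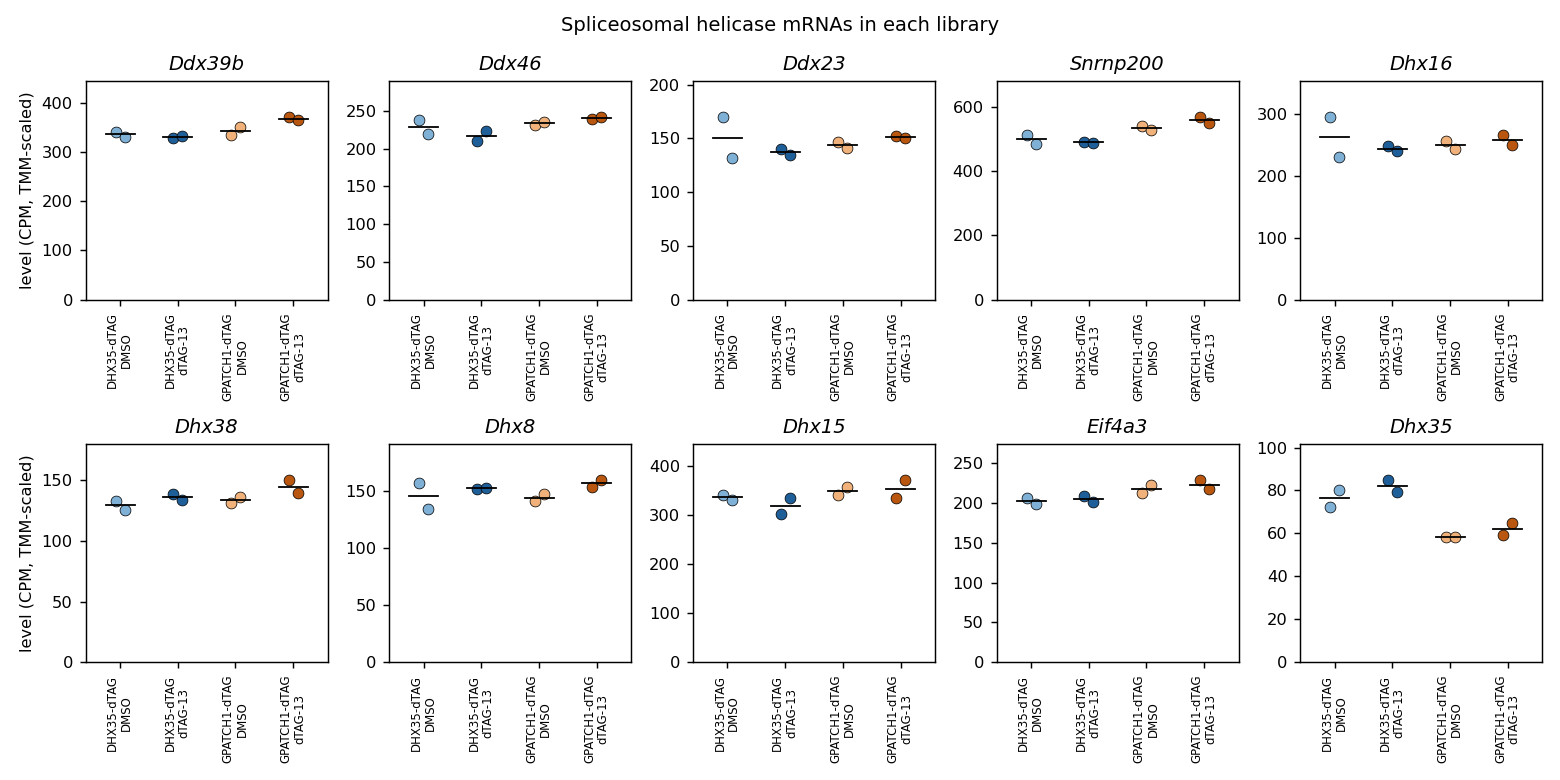
Level of each helicase mRNA (y axis, TMM-scaled CPM, linear, from 0) in the 2 libraries of each of the 4 groups; points are libraries and bars group means. The Dhx35 points of DHX35-dTAG cells lie between 72.3 and 84.8 CPM and those of GPATCH1-dTAG cells between 58.1 and 64.9 CPM, and the high first point of Ddx23 (169.6) and of Dhx16 (294.2) is the library lying apart.

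No helicase mRNA passed the test on degradation of GPATCH1, the cofactor of DHX35, either. The 10 log2 differences were all above 0, yet small, from 0.02 for Dhx15 to 0.12 for Dhx8. Their median was 0.07 beside 0.00 over all genes, of which 50.8% were above 0. None passed an adjusted or an unadjusted p of 0.05 (edgeR; DESeq2 also called none), against a background of 0% and 2.97% of all genes. Dhx35 read 58.1 and 58.4 CPM in DMSO and 59.3 and 64.9 CPM in dTAG-13, a log2 difference of 0.09 (SE 0.10, edgeR adjusted p = 1). Dhx8 read 141.3 and 146.8 CPM in DMSO and 153.7 and 159.3 CPM in dTAG-13. Its dTAG-13 libraries were both above its DMSO libraries, at a log2 difference of 0.12 (SE 0.09, 95% interval -0.09 to 0.33). The same held for 7 of the 10, namely Dhx35, Dhx8, Dhx38, Ddx23, Ddx46, Snrnp200 and Ddx39b, where 21.5% of all genes tested were higher without overlap.

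Among those 7, Snrnp200 went from 541.8 and 528.4 CPM to 567.8 and 550.3 CPM, and Ddx39b from 335.9 and 352.3 CPM to 371.3 and 366.0 CPM. Dhx38 went from 131.2 and 136.4 CPM to 150.0 and 139.2 CPM. The gaps between groups were as small as that between 58.4 and 59.3 CPM for Dhx35. Ddx23 (146.6 and 141.2, then 152.5 and 150.5 CPM) and Ddx46 (232.1 and 236.1, then 239.6 and 241.6 CPM) also had narrow gaps. Dhx16 (255.4 and 243.1, then 265.9 and 249.9 CPM), Dhx15 (339.5 and 355.7, then 333.0 and 370.3 CPM) and Eif4a3 (212.5 and 222.4, then 228.6 and 217.5 CPM) overlapped between DMSO and dTAG-13. All 95% intervals lay between -0.21 and 0.33 on the log2 scale, or 0.866 to 1.26 times the DMSO level.

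The responses of the lines to dTAG-13 were also set against each other. The difference of the log2 responses, GPATCH1-dTAG minus DHX35-dTAG, was from -0.01 for Dhx35 to 0.21 for Ddx23 (SE 0.16), and the edgeR test called none of the 10 (adjusted p from 0.86 to 0.99). No helicase had an unadjusted p under 0.05, against 3.91% of all genes, and DESeq2 called none. The intervals reached from -0.32 to 0.58, and the upper end for Ddx23 was a 1.49-fold larger response. With the DMSO replicate 2 of DHX35-dTAG cells left out, so that the library lying apart was the only control of its line, the differences in response of Dhx16 and Ddx23 were 0.31 and 0.37 (edgeR adjusted p = 0.026 and 0.0066). That fit called 20.9% of all genes, so the 2 of 10 helicases were near its background. Over both lines, dTAG-13 minus DMSO ran from -0.03 for Ddx23 to 0.10 for Dhx35 (SE 0.06, edgeR adjusted p = 0.96). None of the 10 was called by edgeR or DESeq2, none had an unadjusted p under 0.05 (3.59% of all genes did), and none was without overlap between treatments (2.25% of all genes were).

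The lines differed in Dhx35 itself. Dhx35 was lower in GPATCH1-dTAG cells, at 60.2 ± 3.18 CPM (SD, n = 4 libraries), than in DHX35-dTAG cells, where it is the tagged gene, at 79.3 ± 5.19 CPM (SD, n = 4). The highest of the GPATCH1-dTAG libraries (64.9) was below the lowest of the DHX35-dTAG libraries (72.3). With treatment as a covariate, the log2 difference was -0.40 (SE 0.06, 95% interval -0.54 to -0.26), or 0.759 times the level of DHX35-dTAG cells, with an adjusted p of 0.021 in the edgeR quasi-likelihood test. Dhx35 was the 1 helicase called, by DESeq2 as well, where 0.788% of all genes tested were called and 0.452% were called lower. Of the 10 helicases 2 had an unadjusted p under 0.05, against 15.3% of all genes. The size was nearly the same in each treatment, -0.39 in DMSO (SE 0.09) and -0.40 in dTAG-13 (SE 0.09). Neither passed alone in edgeR's fit of all 8 libraries (adjusted p = 0.29 and 0.27), in comparisons of 2 libraries against 2 that called 0.0916% of genes each. With only the libraries compared in the fit, the dTAG-13 difference passed (-0.41, edgeR adjusted p = 0.0092). That fit called 2.2% of all genes, and the same kind of fit in DMSO called 0.0125%.

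The Dhx35 call rested on several libraries. Its log2 difference stayed between -0.43 and -0.36 when each of the 8 libraries was left out, but it passed the threshold without either DHX35-dTAG DMSO library only, in fits that called 5.95% (without replicate 1) and 0.961% (without replicate 2) of all genes. Without DHX35-dTAG dTAG-13 replicate 1 or 2 the edgeR adjusted p was 0.12 and 0.073. Without GPATCH1-dTAG DMSO replicate 1 or 2 it was 0.14 and 0.13, and without GPATCH1-dTAG dTAG-13 replicate 1 or 2 it was 0.12 and 0.097. The comparisons within a treatment changed with the same libraries. In DMSO the difference was -0.46 without DHX35-dTAG DMSO replicate 1 and -0.30 without replicate 2 (edgeR adjusted p = 0.0064 and 0.0092), in fits that called 0.71% and 34.3% of all genes. In dTAG-13 it was -0.41 without either of them (edgeR adjusted p = 0.0018 and 0.0019), with 3.87% and 3.79% of all genes called. Scaled by total counts alone, the difference over both treatments was -0.38 (edgeR adjusted p = 0.42), and on that scale Dhx35 read 68.1 CPM in DHX35-dTAG dTAG-13 replicate 2 and 68.5 CPM in GPATCH1-dTAG dTAG-13 replicate 2, so that the lines overlapped. The former library held 20.2% of its reads on the most counted gene pair and the latter 2.02%.

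The remaining 9 helicases had log2 differences between the lines above 0, opposite in sign to Dhx35, from 0.00 for Dhx16 to 0.14 for Snrnp200, where 47.9% of all genes were above 0, and neither edgeR nor DESeq2 called any of them. Snrnp200 read 485.5 to 512.6 CPM in DHX35-dTAG cells and 528.4 to 567.8 CPM in GPATCH1-dTAG cells. Its lines did not overlap, and its difference (SE 0.05) had an unadjusted p of 0.022 and an adjusted p of 0.25 in the edgeR fit. Of the 8 fits that left out a library, 1 called it, the fit without DHX35-dTAG DMSO replicate 1 (0.17, edgeR adjusted p = 0.017), which called 5.95% of all genes. Eif4a3 read 199.0 to 208.6 CPM against 212.5 to 228.6 CPM, again without overlap, at 0.11 (SE 0.05, edgeR adjusted p = 0.35). Being higher without overlap was found for 2 of the 10 helicases and 5.63% of all genes, and being lower for Dhx35 alone and 6% of all genes. The median of the 10 was 0.08 beside -0.01 over all genes.

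Within a treatment, 6 of the 10 helicases were above 0 in DMSO and 9 in dTAG-13, where 48.7% of all genes were in each. Dhx8 (-0.01 and 0.04), Dhx16 (-0.07 and 0.08) and Ddx23 (-0.06 and 0.14) had opposite signs in DMSO and dTAG-13, with 0 inside every one of these intervals. In DMSO, 1 of the 10 (Dhx35) had an unadjusted p under 0.05, against 12.9% of all genes. With DHX35-dTAG DMSO replicate 2 left out and the library lying apart again the only control of its line, Dhx16 and Ddx23 passed there beside Dhx35, both at -0.23 (edgeR adjusted p = 0.021 and 0.017). That fit called 34.3% of all genes, so the 3 of 10 were near its background. Snrnp200 and Eif4a3 were higher without overlap in DMSO (background 21.8%) and Dhx35 was lower (21.3%). In dTAG-13, Dhx35 and Snrnp200 had an unadjusted p under 0.05, against 8.47% of all genes. All but Dhx15 and Dhx35 were then higher in GPATCH1-dTAG cells without overlap, 8 of 10 beside 21.8% of all genes, and Dhx35 was lower without overlap (23.9%). The largest of those 8 was Snrnp200 at 0.19 (SE 0.08, edgeR adjusted p = 0.56).

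**Figure D3:**
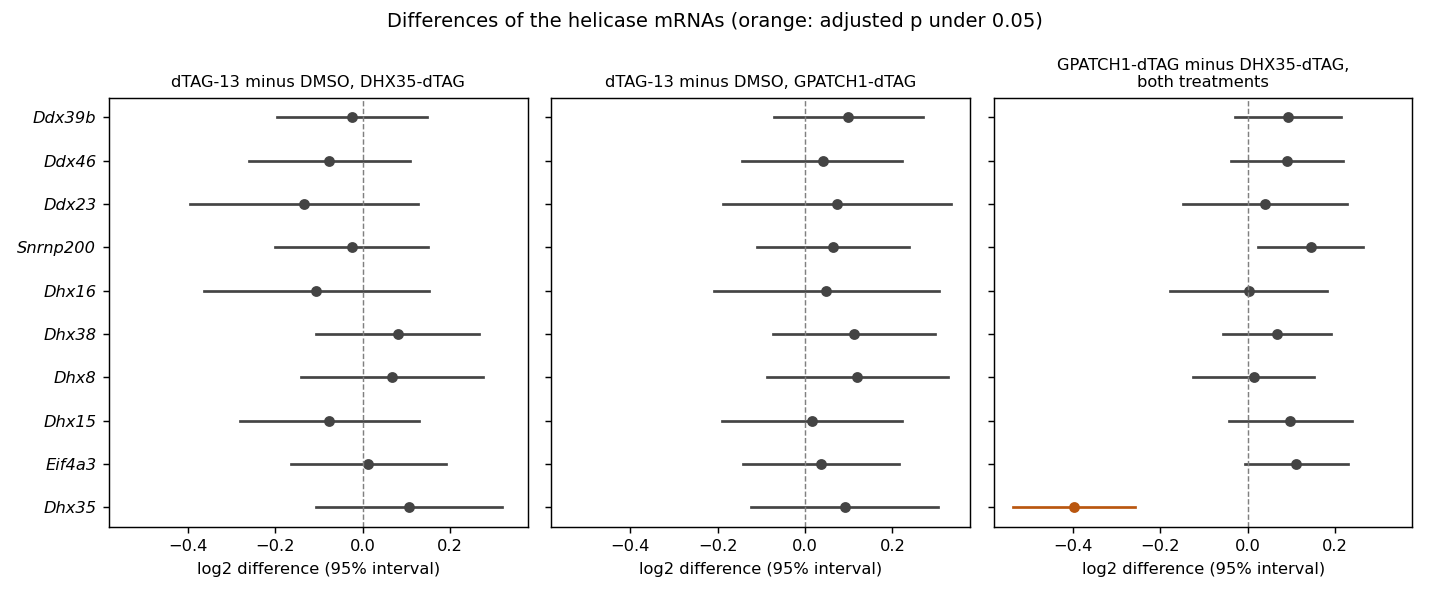
Log2 difference of each helicase mRNA (x axis; point, estimate; bar, 95% interval from edgeR's quasi-likelihood fit) for dTAG-13 minus DMSO in each line and for GPATCH1-dTAG minus DHX35-dTAG over both treatments. Dhx35 at -0.40 in the right panel is the 1 estimate with an adjusted p under 0.05, and it was 0.11 and 0.09 on the 2 depletions.

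Over the 8 libraries, both lines included, Dhx35 varied most of the 10 mRNAs. Its coefficient of variation over the 8 libraries was 15.7%, larger than that of 86.9% of the 8977 genes with a mean of at least 10 CPM, whose median was 8.97%. Within a line, over 4 libraries, it was 6.55% (DHX35-dTAG) and 5.28% (GPATCH1-dTAG). In DHX35-dTAG cells Ddx23 (12.2%), Dhx16 (11.1%) and Dhx8 (6.68%) varied more than Dhx35, and in GPATCH1-dTAG cells Dhx38 (5.68%) did. Over the 8 libraries the other 9 helicases varied by 4.73% (Ddx39b) to 8.31% (Ddx23), all below the median gene. The raw Dhx35 counts behind these levels were 661 to 1251 reads per library, the fewest of the 10, and Snrnp200 had the most, 5521 to 9163. The genes whose pattern over the 8 libraries was nearest to that of Dhx35, by the root mean square distance of centred log2 CPM among 8976 genes, were Bcap29 (0.058), Lck (0.06), Rbm47 (0.061), Mtus1 (0.063) and Zfp46 (0.071). Of these 5, 1 was also among the nearest 5 when the patterns were divided by their SD. Having been chosen for this pattern, the 5 had log2 differences of -0.46 to -0.35 between GPATCH1-dTAG and DHX35-dTAG cells, and 1 of them, Zfp46, had an edgeR adjusted p under 0.05 (0.039; the others 0.06 to 0.15). No other helicase was near, the closest being Dhx8 at rank 3237 and the farthest Snrnp200 at rank 6720. These are descriptions of 8 libraries that share lines and treatments.

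The genes beside Dhx35 on chromosome 2 were compared between the lines over both treatments in the same way. Of 10 tested genes within 1 Mb, 0 were called by edgeR or DESeq2 and 1 had an unadjusted p under 0.05, beside 0.788% and 15.3% of all genes by edgeR. All 10 start before Dhx35, none after it, 4 were below 0 and their median was 0.05. Fam83d, which encodes a spindle protein and starts 26.7 kb before Dhx35, was the lowest at -0.19 (SE 0.09, adjusted p = 0.31). Actr5 stood at -0.06 and Rprd1b, at 0.15, was the highest.

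The protein partners of these helicases were examined as a list of 24 cofactor genes, all of which were tested. None was called on either depletion by edgeR (background 0%) or DESeq2. None had an unadjusted p under 0.05, beside 5.39% of all genes on DHX35 degradation and 2.97% on GPATCH1 degradation, and their medians were 0.04 on DHX35 degradation and 0.03 on GPATCH1 degradation. Between the lines edgeR called 1 of 24, where 0.788% of all genes were called, and 5 had an unadjusted p under 0.05, beside 15.3% of all genes. The called gene was Gpatch1, the activator of DHX35 and the gene tagged in the GPATCH1-dTAG line. Gpatch1 read 23.2 to 25.6 CPM in DHX35-dTAG cells and 6.90 to 7.31 CPM in GPATCH1-dTAG cells, a log2 difference of -1.75 (SE 0.08, edgeR adjusted p = 6.5e-06). DESeq2 called Gpatch1 and also Rbm5, a splicing regulator with a G-patch at a line difference of 0.31 (SE 0.08; adjusted p = 0.049 in DESeq2 and 0.11 in edgeR). Dhx35 and Gpatch1 were thus both lower in the GPATCH1-dTAG line, the second by far more. On GPATCH1 degradation itself, Gpatch1 stayed at a log2 difference of 0.00 (SE 0.13). Tfip11, the G-patch activator of DHX15, read 80.5 to 83.0 CPM in DHX35-dTAG and 73.2 to 90.4 CPM in GPATCH1-dTAG cells, with a line difference of 0.00. Prpf8, the scaffold at the spliceosome's centre and a regulator of SNRNP200, read 738.4 to 958.4 CPM and 1023 to 1067 CPM, a difference of 0.24 (SE 0.08, edgeR adjusted p = 0.20). The lowest value on DHX35 degradation was that of Wdr83 at -0.60 (SE 0.29, edgeR adjusted p = 0.71). Wdr83, a WD-repeat spliceosome protein, read 22.1 ± 11.03 CPM in DMSO and 14.5 ± 1.00 CPM in dTAG-13 (SD, n = 2), so its DMSO libraries differed from each other by more than the groups did.

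Other helicases served as a further reference. None of 10 further RNA helicases linked to the spliceosome was called by edgeR or DESeq2 in either depletion or between the lines (unadjusted p under 0.05 in 0, 1 and 1 of them, beside 5.39%, 2.97% and 15.3% of all genes). Aqr, a helicase bound to the intron in activated spliceosomes, read 144.8 to 185.1 CPM in DHX35-dTAG and 190.4 to 212.6 CPM in GPATCH1-dTAG cells, without overlap (5.63% of all genes were higher without overlap), at 0.21 (SE 0.08, edgeR adjusted p = 0.25). Ddx41 (0.02) and Ddx39, the paralogue of Ddx39b (0.03), were near 0 between the lines. None of 10 DEAH helicases of other processes was called by either tool (unadjusted p under 0.05 in 0, 0 and 1), and their median between the lines was -0.03 beside 0.07 for the spliceosome-linked helicases. Eif4a1 and Eif4a2, translation helicases related to Eif4a3, were not called in these comparisons either (no unadjusted p under 0.05), at -0.05 and 0.16 between the lines. On DHX35 degradation Eif4a2 stood at -0.23 (SE 0.11, edgeR adjusted p = 0.71), with 345.9 CPM as its lowest value in that line and 470.2 CPM as its highest.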

How the data were processed

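RNA was sequenced from DHX35-dTAG and GPATCH1-dTAG mouse embryonic stem cells in DMSO or dTAG-13. The authors removed ribosomal RNA, added human DLD-1 RNA as a spike-in and made stranded libraries. Per the submitters' processing notes, FastQC 0.11.9, Trim Galore 0.6.6, STAR 2.7.5c, with mm10 and hg19, and DESeq2 1.26.0 were used. What the authors deposited were raw read counts by gene symbol, separately for each library and without normalization. The counting program, annotation and strand setting are not given in the sources used here. None of 8 human symbols searched was found, and spike-in reads and splice junctions were not used here.

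Groups and replicate numbers came from the sample labels. The test was that of edgeR 4.0.16, run in R 4.3.3 (TMM, filterByExpr on the 4 groups, glmQLFit and glmQLFTest). The fit had 1 term per group for the depletions, their difference and the line difference within a treatment, and line and treatment as terms for the comparisons over all 8 libraries. P-values were adjusted by Benjamini-Hochberg over all 16371 genes, with 0.05 as the threshold. Replicates varied by 11.2% (common dispersion 0.0125). Background percentages are shares of those genes. Levels per length used GENCODE M21 exons, and 53292 of 55291 symbols had an entry there. Patterns were ranked on log2 CPM with a prior count of 2.

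The genes named were all 10 helicases, the lists of cofactors and other helicases, the 5 genes most like Dhx35, the tested genes within 1 Mb of it and genes that set a list's range; members and lists were chosen with earlier results of these data known. The table symbol Ddx39 was taken for Ddx39a by its RefSeq synonym. The 2 libraries of a group were not copies of the same counts, with a chi-square per gene of 5.34 to 132. That value does not tell separate cultures from repeat preparations of the same RNA. The alternatives were DESeq2 1.42.0, its size factors, total counts as library sizes, other filters, a replicate block, only the libraries compared, omission of the most counted gene pair, and each library left out in turn.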

Additional observations from a re-analysis of the deposited data

How the results depend on the processing

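With 2 libraries in a group, leaving out 1 leaves a lone library assumed to vary like the other groups. The number of helicases called on leaving out each library was 0 to 2 for DHX35 depletion and for the difference between the responses, 0 to 3 for the line difference in DMSO, 0 to 1 for the line difference in dTAG-13 and 0 to 2 over both treatments. It was 0 throughout for GPATCH1 depletion and for dTAG-13 across both lines. With only the 4 libraries compared, the line difference in dTAG-13 called 1 helicase, Dhx35 (-0.41, adjusted p = 0.0092), and 2.2% of all genes. With total counts as library sizes, the line difference over both treatments called 0 helicases and 1.15% of all genes. Over all genes tested, the number called was 0 for DHX35 depletion (0 to 4949 over the alternatives), 0 for GPATCH1 depletion (0 to 127), 0 for the difference between the responses (0 to 3592), 15 for the lines in DMSO (2 to 5887) and 15 in dTAG-13 (4 to 660), 0 for dTAG-13 across both lines (0 to 80) and 129 for the lines over both treatments (27 to 1013). The highest of these came from leaving out a DHX35-dTAG DMSO library, except for GPATCH1 depletion (only the libraries compared) and dTAG-13 across both lines (no expression filter).

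Of 1090 recomputed log2 differences, 53 changed sign, 38 of them on leaving out a library, and 0 of the 53 passed the threshold in the setting reported. Total counts as library sizes moved the median of all genes to -0.25 with DHX35 degraded, 0.17 with GPATCH1 degraded, 0.40 for the responses, -0.19 and 0.21 for the lines in DMSO and dTAG-13, -0.04 for dTAG-13 across both lines and 0.01 for the lines over both treatments. Under it the DHX35 depletion values became -0.13 (Dhx35), -0.17 (Dhx8), -0.16 (Dhx38) and -0.22 (Eif4a3), and the response difference of Dhx35 0.39. The line difference in DMSO became -0.14 (Dhx15 and Dhx38), -0.15 (Ddx46), -0.080 (Snrnp200), -0.16 (Ddx39b) and -0.087 (Eif4a3), and dTAG-13 across both lines -0.017 (Snrnp200) and -0.0080 (Eif4a3). All 13 of these kept their side of the median of all genes, which that scaling itself moved. Without an expression filter the line difference of Dhx8 in DMSO was 0.0050, and with at least 10 counts in every library that of Dhx16 over both treatments was -0.00026. The correlations of same-numbered deviations were 0.037 to 0.23. Such weak values do not settle whether the replicate numbers pair the libraries, and the main fit did not pair them. A replicate block changed no helicase call, and Dhx35 between the lines was -0.40 (adjusted p = 0.024) with it.

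Where leaving out a library turned a sign, the values ran as follows. On DHX35 depletion they ran from -0.031 to 0.18 (Dhx8), -0.26 to 0.080 (Dhx16), -0.30 to 0.062 (Ddx23), -0.054 to 0.016 (Snrnp200), -0.040 to 0.0017 (Ddx39b) and -0.013 to 0.044 (Eif4a3), and after loss of GPATCH1 from -0.062 to 0.092 (Dhx15). For the difference between the responses they ran from -0.10 to 0.059 (Dhx35), -0.062 to 0.15 (Dhx8), -0.030 to 0.31 (Dhx16), -0.027 to 0.080 (Dhx38) and -0.017 to 0.053 (Eif4a3). For the lines in DMSO they ran from -0.11 to 0.10 (Dhx8), -0.23 to 0.11 (Dhx16), -0.23 to 0.13 (Ddx23) and -0.016 to 0.095 (Ddx46). For dTAG-13 across both lines they ran from -0.067 to 0.0066 (Dhx15), -0.077 to 0.062 (Dhx16), -0.077 to 0.0695 (Ddx23) and -0.031 to 0.019 (Ddx46), and for the lines over both treatments from -0.02 to 0.066 (Dhx8), -0.045 to 0.093 (Dhx16) and -0.0069 to 0.14 (Ddx23). Calls of Dhx16 and Ddx23 arose only when replicate 2 of DHX35-dTAG cells in DMSO was left out. The cause of these changes was not tested. Dhx35 had 661 to 1251 reads per library, the fewest of the 10.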
